A study of Rattus norvegicus with 12 samples.

Results

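The genes described here encode 9 dual-specificity phosphatases of the MAP kinase phosphatase family, Dusp1, Dusp2, Dusp4, Dusp5, Dusp6, Dusp7, Dusp8, Dusp10 and Dusp16. They were taken by symbol from the annotation of the array and are 9 of 18166 named genes tested. Each is read by 1 probe, so no choice between probes arose, and all 9 entered the fit because no filter on low values was applied.

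MAP kinase phosphatases switch off the MAP kinases ERK, JNK and p38 by removing phosphate from both the threonine and the tyrosine of the kinase's activation loop. Many are transcribed in response to the pathway they silence and so form a negative feedback loop, and their catalytic cysteine can be inactivated by oxidants, an effect on the protein that an RNA measurement does not see. Dusp1, Dusp2, Dusp4 and Dusp5 act in the nucleus, Dusp6 and Dusp7 act on ERK in the cytoplasm, and Dusp8, Dusp10 and Dusp16 act chiefly on JNK and p38. In mice, loss of Dusp6 raises ERK phosphorylation in the heart.

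The samples were primary rat cardiomyocytes, labelled wt, in 4 groups of 3 one-colour arrays. The groups were control cells and cells given SIN-1, a donor of peroxynitrite, for 70 min, 4 h or 8 h. All were grown in DMEM/F12 with fetal bovine and horse serum. The labels give no SIN-1 concentration, no time in culture for the control, no word on a vehicle and no age of the animals, and the control is shared by the 3 treated groups. The arrays are called biological triplicates without saying whether cultures were separate, so p-values measure the spread between these arrays. Values are log2 expression after RMA, a method that corrects background, equalises the distributions of the arrays and summarises probes. A difference of 1 is a doubling.

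The label of the cells was set against marker genes. In control, the sarcomere and calcium release genes Myh6 (3.99), Myh7 (3.64), Actn2 (4.25), Ryr2 (4.21) and Ttn (4.46) had log2 means close to 4.34, the median over probes with no listed gene, whereas Tnnt2 was at 5.99, Tnnc1 at 7.22, Pln at 8.16 and Atp2a2 at 9.52. The remaining cardiomyocyte markers were Tnni3 (5.45), Myl7 (5.19), Nppa (4.76), Csrp3 (4.71) and Myoz2 (4.69). The matrix genes Col1a1 (12.75), Col1a2 (12.50), Col3a1 (11.95) and Postn (11.68) and the mural and smooth muscle genes Pdgfrb (10.38) and Tagln (12.40) were bright. The other markers of these lists were lower, namely Lum (9.05), Thy1 (6.28), Dcn (6.17), Pdgfra (5.77), Tcf21 (4.75), Rgs5 (5.87) and Myh11 (5.59). Macrophage and leukocyte markers lay between 3.36 and 4.81. Several defining cardiomyocyte transcripts were thus not above the level of unlisted probes, although probes differ in brightness and their levels give no exact order. At 70 min, where 14.6% of all genes were called (6.76% higher, 7.81% lower), 3 of 9 fibroblast and matrix markers were lower and none higher. Their summed level, as log2 of the sum, was 14.17 to 14.24 at 70 min, 14.27 to 14.30 at 4 h and 14.31 to 14.36 at 8 h, against 14.32 to 14.35 in control. Of 14 cardiomyocyte markers 2 were higher at 70 min, Atp2a2 and Myoz2. The summed level of the 14 was 10.79 to 10.86 at 70 min, 10.55 to 10.59 at 4 h and 10.48 to 10.55 at 8 h, against 10.46 to 10.59 in control. Both sums add linear values and so follow the brightest markers most, such as Col1a1 (12.75) and Atp2a2 (9.52). They are not a measure of all markers of a list alike. At 70 min 1 of 4 endothelial markers was higher and 1 lower, 1 of 4 smooth muscle markers was higher, and 0 of 6 macrophage markers were called, with 2 at an unadjusted p under 0.05. Of these, Myoz2 (adjusted p = 0.0857), the endothelial Egfl7 (0.664) and the smooth muscle Tagln (0.188) were not called at 70 min without the 3 arrays of highest array median. At 4 h, where 3.85% of all genes were called, Atp2a2 was higher by 0.24 (0.25 without those arrays, not called). Pln was lower by 0.44 (not called without them), and Col3a1 and Pdgfrb were lower by 0.18 and 0.49. The call of Col3a1 ended without 4 h replicate 1 or control replicate 3 (limma adjusted p = 0.0528 and 0.0607). It also ended with arrays centred on their medians (0.138) and with no trend in the prior variance (0.264). Those of Atp2a2 and Pln ended with single arrays left out too. No marker is at 0 on a log2 scale. The part of these marker levels in the results was not tested, and a change in the number of cells of a type cannot be told apart from a change in RNA per cell.

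Over all probes, 3 arrays had the highest medians, namely 70 min replicate 2 (5.11), 70 min replicate 3 (5.12) and 4 h replicate 3 (5.09), and those of the remaining arrays lay between 4.98 and 5.05. Member calls that end without these 3 arrays are given without them as well, which leaves 1 array at 70 min whose spread is taken from the other groups.

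Promoters are shown for Dusp1 and Dusp5, which held the only full CRE and the only CArG boxes among the members searched. RefSeq's GRCr8 table had a promoter for 8 of the 9 genes, Dusp4 being the one not matched. The 250 bases before the annotated start were searched on both strands for the full cyclic AMP response element TGACGTCA, its shorter core TGACG (which the full element contains), the AP-1 site TGANTCA, the ETS core CCGGAA and the CArG box of the serum response element. The lines below run 5′ to 3′ along the gene's strand and end at the base before the start. The first is chr10:17184603-17184852 and the second chr1:262543524-262543773, both on the plus strand, and capitals mark the matches.
Dusp1: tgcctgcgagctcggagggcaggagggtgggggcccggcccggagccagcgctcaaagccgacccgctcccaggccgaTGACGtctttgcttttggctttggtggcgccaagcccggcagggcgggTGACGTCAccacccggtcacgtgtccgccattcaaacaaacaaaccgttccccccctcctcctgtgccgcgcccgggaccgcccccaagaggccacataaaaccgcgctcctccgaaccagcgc
Dusp5: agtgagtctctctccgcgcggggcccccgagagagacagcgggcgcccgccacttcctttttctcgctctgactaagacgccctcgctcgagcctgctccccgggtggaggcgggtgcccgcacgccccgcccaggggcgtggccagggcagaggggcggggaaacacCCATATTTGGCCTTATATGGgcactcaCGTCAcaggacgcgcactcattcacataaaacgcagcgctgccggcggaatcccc
Dusp1 held 1 full element, beginning 124 bases before the start, and a separate core beginning 172 bases before it. Dusp5 held 2 CArG boxes lying end to end, beginning 82 and 72 bases before the start, and 1 core on the other strand. Of 33469 promoters in the table, 1.59% held the full element, 18.2% the core, 6.34% the AP-1 site, 12.6% the ETS core and 1.497% a CArG box. Dusp2 and Dusp16 held 1 core each, and Dusp6, Dusp7, Dusp8 and Dusp10 held none of these letters in this window. A match is a description of the sequence and not a measured binding site.

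Across the 4 groups 6 of the 9 genes changed by limma's F test at an adjusted p under 0.05, where 15.3% of all genes did. They were Dusp1, Dusp5, Dusp6, Dusp7, Dusp8 and Dusp10. Fewer of the 9 passed the F test without the 3 arrays of highest median, which leaves 1 array at 70 min. The changes did not run in 1 direction: after 70 min Dusp5 and Dusp7 were higher and Dusp1, Dusp6 and Dusp8 lower, after 4 h Dusp10 was higher and Dusp1, Dusp6 and Dusp7 lower, and after 8 h no member differed detectably from control. Dusp2, Dusp4 and Dusp16 did not pass in any comparison.

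**Figure D1:**
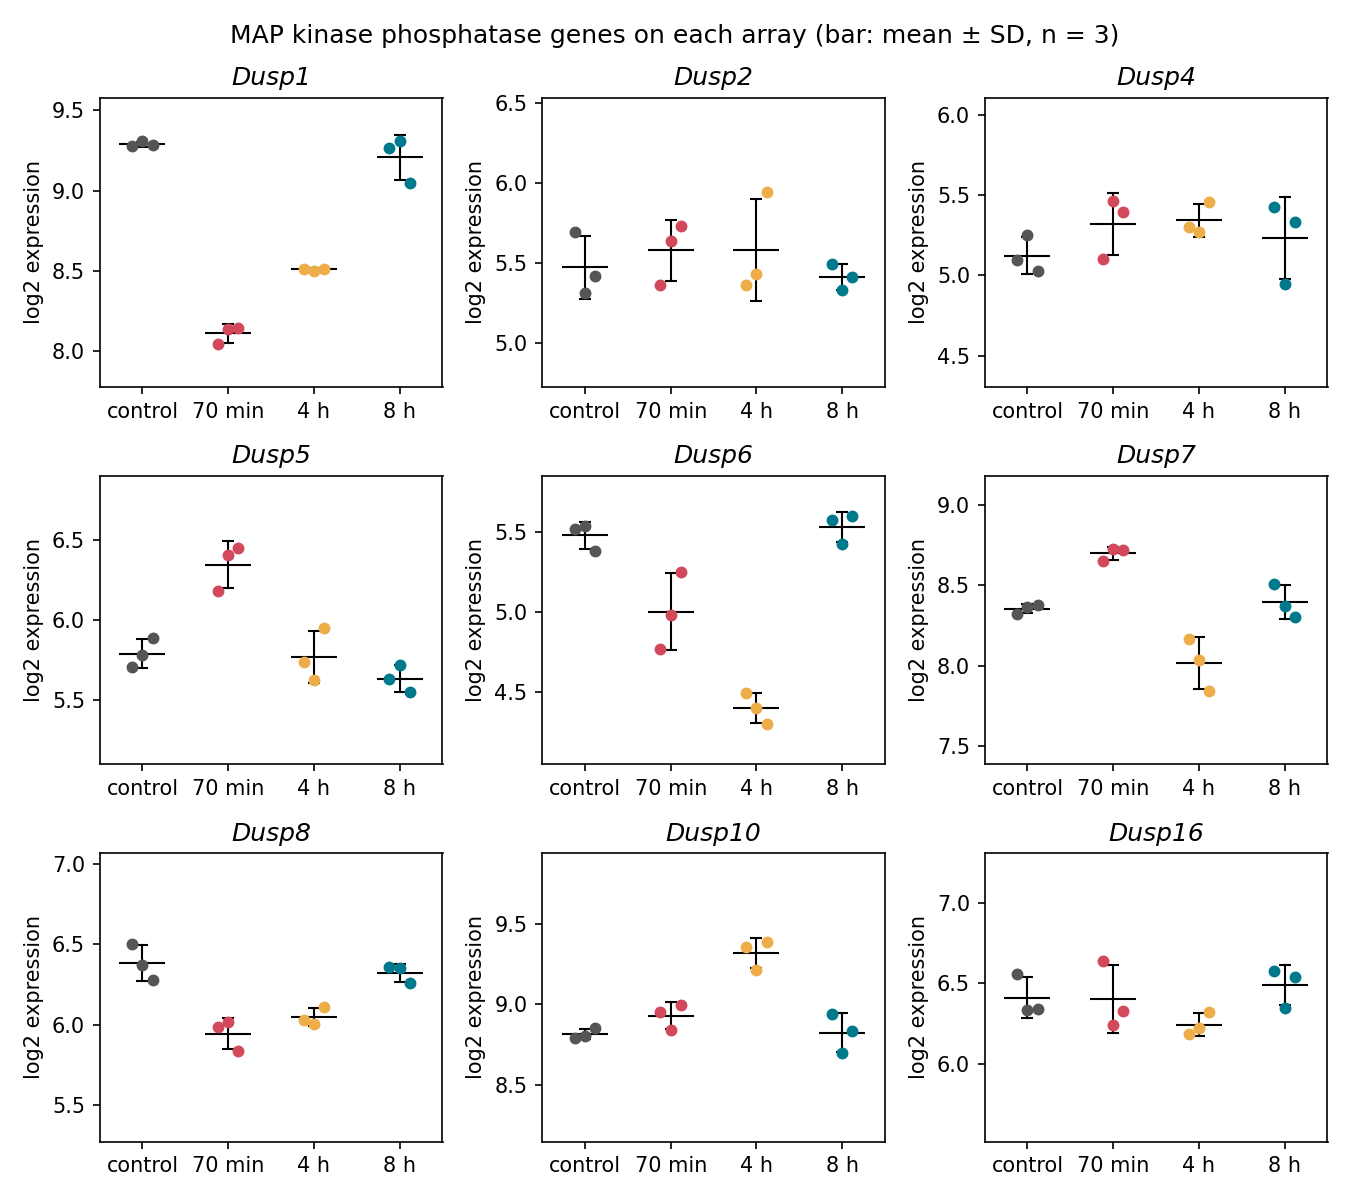
Log2 expression of the 9 phosphatase genes (vertical axis, the same span in each panel) on every array in control and after 70 min, 4 h and 8 h of SIN-1; points are arrays, bars the mean ± SD of 3. Dusp1 and Dusp6 fall and return, Dusp5 peaks at 70 min, Dusp7 is high at 70 min and low at 4 h, and Dusp10 peaks at 4 h.

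Dusp1, the nuclear phosphatase also known as MKP-1 that acts on p38, JNK and ERK, had the smallest spread within groups of the 9 genes (pooled SD 0.0755). Its log2 values were 9.28, 9.31 and 9.28 in control, 8.05, 8.14 and 8.15 at 70 min, 8.51, 8.50 and 8.51 at 4 h, and 9.27, 9.31 and 9.05 at 8 h. The 70 min and 4 h arrays all lay below the control arrays and did not overlap each other, while the 8 h arrays overlapped control. At 70 min Dusp1 averaged 8.11 ± 0.06, against 9.29 ± 0.02 in control (SD, n = 3 each). That is 2.26-fold lower, with a log2 fold change of -1.18 (95% confidence interval -1.33 to -1.03; limma adjusted p = 1.05e-08). Ordered by log2 fold change from the most negative, Dusp1 was number 37 of 18166 genes. At 4 h it was 1.72-fold lower than control, with a log2 fold change of -0.78 ± 0.07 (SE; limma adjusted p = 9.54e-06). Between the times it rose by 0.40 at 4 h against 70 min (limma adjusted p = 0.00156) and by 0.70 at 8 h against 4 h (2.08e-05). At 8 h its difference from control was -0.081 (95% confidence interval -0.23 to 0.068). All 5 calls of Dusp1 held with each of the 12 arrays left out in turn, and without the 3 arrays of highest median that of 4 h against 70 min alone did not (0.46, adjusted p = 0.0514).

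Dusp5, a nuclear phosphatase selective for ERK, moved the other way at 70 min. Its log2 values were 5.70, 5.78 and 5.89 in control, 6.18, 6.40 and 6.45 at 70 min, 5.74, 5.63 and 5.95 at 4 h, and 5.63, 5.72 and 5.55 at 8 h. The 70 min arrays stood above all 9 others, and the other groups overlapped. At 70 min Dusp5 averaged 6.34 ± 0.14, against 5.79 ± 0.09 in control (SD, n = 3 each), which is 1.47-fold higher (log2 fold change 0.56 ± 0.12, SE; limma adjusted p = 0.00352). It was lower by 0.57 at 4 h than at 70 min (limma adjusted p = 0.00514) and lower by 0.71 at 8 h than at 70 min (0.000398). At 4 h its difference from control was -0.018 (95% confidence interval -0.27 to 0.23). The lowest of the 70 min arrays was replicate 1, the only one without a high array median. Without the 3 arrays of highest median the difference from control at 70 min was 0.39 (adjusted p = 0.155) and that of 4 h against 70 min -0.50 (0.160), both no longer called.

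The remaining nuclear members, Dusp2 and Dusp4, did not pass. Dusp2, a phosphatase best known from activated leukocytes, had group means of 5.48 in control, 5.58 at 70 min, 5.58 at 4 h and 5.41 at 8 h, and its SD within groups, 0.21 pooled, was the highest of the 9 genes. Dusp4, which acts on ERK and JNK and is closely related to Dusp1, had means of 5.12, 5.32, 5.34 and 5.23 in the same order. The 95% confidence intervals of the change at 70 min were -0.23 to 0.43 for Dusp2 and -0.11 to 0.50 for Dusp4. The difference of either from Dusp5 was not tested. The largest difference of Dusp4 from control was 0.22 at 4 h (95% confidence interval -0.084 to 0.53, limma adjusted p = 0.524). There all its arrays lay above the control arrays.

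Dusp6, known as MKP-3 and dedicated to ERK in the cytoplasm, fell further with time before it returned. Its log2 values were 5.52, 5.53 and 5.38 in control, 4.77, 4.98 and 5.25 at 70 min, 4.49, 4.40 and 4.31 at 4 h, and 5.57, 5.42 and 5.60 at 8 h. All 70 min arrays lay below control and all 4 h arrays below those of 70 min. At 4 h Dusp6 averaged 4.40 ± 0.09, against 5.48 ± 0.08 in control (SD, n = 3 each). That is 2.11-fold lower, with a log2 fold change of -1.08 (95% confidence interval -1.36 to -0.80; limma adjusted p = 0.000139). Only 8 of 18166 genes had a more negative value at 4 h. The 4 h values stood next to 4.34, the median of unlisted probes, a range in which folds are compressed. At 70 min it was 1.39-fold lower (-0.48 ± 0.13, SE; limma adjusted p = 0.0219), and at 8 h it was 2.19-fold higher than at 4 h (1.13 ± 0.13; 7.3e-05). The difference of 8 h from control was 0.052 (95% confidence interval -0.23 to 0.33). The 70 min call was lost when 70 min replicate 1 or 2 was left out (adjusted p = 0.0740 and 0.0625), and likewise when control replicate 1 or 2 was (0.0797 and 0.0742). That of 4 h against 70 min, -0.60, ended without 70 min replicate 3 (0.0567), with the compared groups alone (0.0615), and without the 3 arrays of highest median (-0.32, 0.489). Without those 3 arrays the change at 70 min was larger, -0.71 (adjusted p = 0.0161).

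Dusp7, the cytoplasmic ERK phosphatase closely related to Dusp6, went in opposite directions at 70 min and 4 h. Its log2 values were 8.32, 8.37 and 8.37 in control, 8.65, 8.72 and 8.72 at 70 min, 8.17, 8.04 and 7.84 at 4 h, and 8.51, 8.37 and 8.30 at 8 h. Every 70 min array was above, and every 4 h array below, all control arrays. Dusp7 was 1.27-fold higher at 70 min than in control (0.34 ± 0.08, SE; limma adjusted p = 0.00851) and 1.26-fold lower at 4 h (-0.34 ± 0.08; 0.0272). The direct comparison of 4 h with 70 min gave 8.01 ± 0.16 against 8.70 ± 0.04 (SD, n = 3 each), a 1.61-fold decrease (log2 fold change -0.68, 95% confidence interval -0.86 to -0.51; limma adjusted p = 3.93e-05). At 8 h it had risen by 0.38 over 4 h (limma adjusted p = 0.0146), and its difference from control was 0.040 (95% confidence interval -0.13 to 0.21). The comparison of 4 h with 70 min held with each array left out in turn (-0.76 to -0.60) and without the 3 arrays of highest median (-0.55, adjusted p = 0.0231). The calls against control were less firm. At 4 h the call ended without any single control array (adjusted p = 0.0756, 0.105 and 0.0978 for replicates 1 to 3) and without 4 h replicate 2 or 3 (0.0580 and 0.114). With arrays centred on their medians neither time was called (0.0823 at 70 min and 0.127 at 4 h), and without the 3 arrays of highest median neither was (0.127 and 0.128). The call of 8 h against 4 h ended without 4 h replicate 3 or 8 h replicate 1 or 2 (0.0690, 0.0692 and 0.0558), with arrays centred (0.0637), with no trend in the prior variance (0.0672), with the compared groups alone (0.0818) and without the 3 arrays of highest median (0.29, 0.0841). At 8 h against 70 min Dusp7 was lower by 0.30 (limma adjusted p = 0.0170), a call that also ended without those 3 arrays (-0.26, 0.191).

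Among the phosphatases of JNK and p38, Dusp8, a member expressed in brain and heart, was lower at 70 min. Its log2 values were 6.51, 6.37 and 6.28 in control, 5.99, 6.01 and 5.83 at 70 min, 6.03, 6.005 and 6.11 at 4 h, and 6.36, 6.35 and 6.26 at 8 h. The 70 min and 4 h arrays all lay below control, and the 8 h arrays fell inside the control range or next to its lower end. Dusp8 averaged 5.94 ± 0.10 at 70 min, against 6.39 ± 0.11 in control (SD, n = 3 each), 1.36-fold lower (log2 fold change -0.44 ± 0.10, SE; limma adjusted p = 0.00661). At 4 h the difference was -0.34 ± 0.10 and did not pass (adjusted p = 0.0838; 0.0396 among the brighter genes alone). Without the 3 arrays of highest median the 70 min value was -0.40 and was not called (adjusted p = 0.113). At 8 h Dusp8 was 0.38 above 70 min (limma adjusted p = 0.0161), a call that ended without 70 min replicate 3 or 8 h replicate 1 or 2 (0.0794, 0.0531 and 0.0644), and without the 3 arrays of highest median (0.34, 0.184).

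Dusp10, known as MKP-5 and directed at JNK and p38, was the only member higher than control at 4 h by the test. Its log2 values were 8.79, 8.80 and 8.85 in control, 8.95, 8.84 and 8.996 at 70 min, 9.36, 9.21 and 9.39 at 4 h, and 8.94, 8.70 and 8.83 at 8 h. The 4 h arrays stood above all 9 others. At 4 h Dusp10 averaged 9.32 ± 0.10, against 8.81 ± 0.03 in control (SD, n = 3 each), 1.42-fold higher (log2 fold change 0.50, 95% confidence interval 0.35 to 0.66; limma adjusted p = 0.000692). It was also 0.39 above 70 min (limma adjusted p = 0.00292), and at 8 h it was 0.50 below 4 h (0.00075). The change at 70 min was 0.11 (95% confidence interval -0.042 to 0.27) and that at 8 h 0.0086 (-0.15 to 0.16). All 3 calls held with each array left out in turn. Without the 3 arrays of highest median the difference of 4 h from control was 0.47 (adjusted p = 0.00841), and that of 4 h from 70 min, 0.33, was not called (0.205).

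Dusp16, known as MKP-7, which acts on JNK and p38, did not change by the test. Its group means were 6.41 in control, 6.40 at 70 min, 6.24 at 4 h and 6.49 at 8 h. The largest difference from control was -0.17 at 4 h (95% confidence interval -0.42 to 0.081; limma adjusted p = 0.563), where all 3 arrays lay below the control arrays by a margin smaller than the interval.

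**Figure D2:**
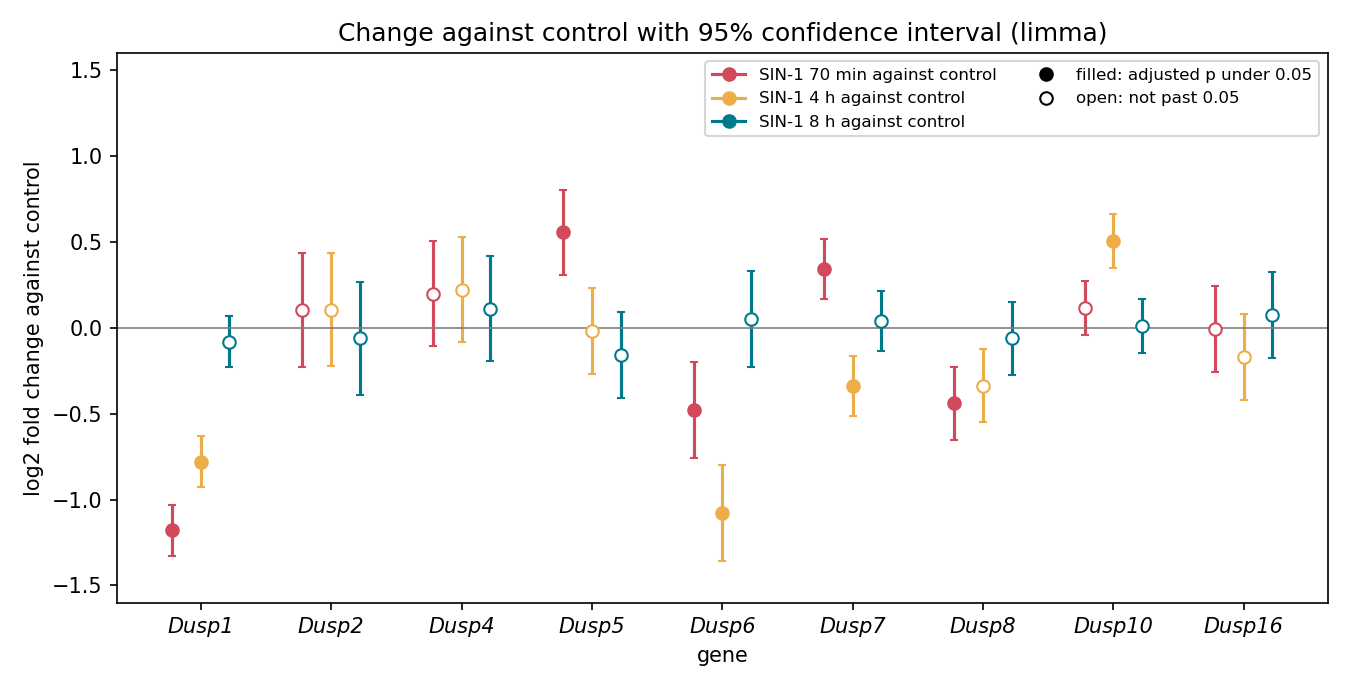
Log2 fold change against control (vertical axis) of each phosphatase gene at 70 min, 4 h and 8 h of SIN-1 with its 95% confidence interval, all against the same 3 control arrays; filled points have an adjusted p under 0.05. At 8 h all 9 intervals include 0, and Dusp7 lies on opposite sides of 0 at 70 min and 4 h.

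Counted by comparison, 5 of 9 members were called at 70 min against control, 2 higher and 3 lower, where 14.6% of all genes were called (6.76% higher, 7.81% lower). At 4 h against control 4 were called, 1 higher and 3 lower, where 3.85% of all genes were called (2.08% higher, 1.77% lower). At 8 h against control the count was 0, with 0 members at an unadjusted p under 0.05, and 0.0275% of all genes were called (0.022% higher, 0.0055% lower). The median absolute log2 fold change of the 9 genes was 0.34, 0.34 and 0.062 at the 3 times, beside 0.16, 0.11 and 0.085 over all genes. Between times, 5 were called at 4 h against 70 min (2 higher, 3 lower, where 7.63% of all genes were called, 4.48% higher and 3.15% lower), 4 at 8 h against 4 h (3 higher, 1 lower, where 3.51% were, 1.97% higher and 1.54% lower) and 5 at 8 h against 70 min (3 higher, 2 lower, where 16% were, 9.56% higher and 6.43% lower). These comparisons share arrays and are not independent of each other. Without the 3 arrays of highest median fewer members were called in every comparison except 8 h against control, where none was called with or without them. Fewer of all genes were called in the same comparisons as well, in a setting that leaves 1 array at 70 min. Without 70 min replicate 3, and also without 8 h replicate 2, 3 were called at 8 h against 70 min.

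The other genes of the MAP kinase pathway were read from 7 lists, of which 94 of 104 genes were measured. Of 11 measured MAP kinase genes, among them those of JNK (Mapk8, Mapk9 and Mapk10) and p38 (Mapk11, Mapk12, Mapk13 and Mapk14), none was called at any time against control by limma, with 1, 2 and 1 at an unadjusted p under 0.05 at 70 min, 4 h and 8 h. Of 19 measured kinases upstream of them 4 rose and 2 fell at 70 min (median log2 fold change 0.0037, all genes 0.031). Over all genes 14.6% were called at 70 min (6.76% higher, 7.81% lower) and 3.85% at 4 h (2.08% higher, 1.77% lower). Map2k6, a p38 activator, fell by 1.61 on the log2 scale to a 70 min mean of 4.19, which lies below 4.34, the median of unlisted probes, so that the size of its fall is uncertain, while Map3k6 rose by 0.71 and Map2k3, also a p38 activator, by 0.47 (not called without the 3 arrays of highest median, adjusted p = 0.0565). At 4 h 0 of the 19 were called, with 2 at an unadjusted p under 0.05. Among 13 MAP kinase-activated kinases and scaffolds 1 rose and 3 fell at 70 min (median -0.14) and 0 were called at 4 h, with 0 at an unadjusted p under 0.05. The one that rose was Mapkapk2, a kinase directly downstream of p38, at 0.46, and each of the 3 that fell lost its call when single arrays were left out.

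Of 14 measured dual-specificity phosphatases outside the 9, Styxl1, a catalytically inactive relative, fell by 0.82 at 70 min, Dusp19 fell by 0.42, and Dusp26 rose by 0.58. None of the 14 was called at 4 h, with 1 at an unadjusted p under 0.05. The shares called over all genes were 14.6% at 70 min and 3.85% at 4 h. The call of Dusp19 ended without 70 min replicate 2 (adjusted p = 0.0556) and that of Dusp26 without 70 min replicate 2 or 3 or control replicate 2 or 3 (0.0995, 0.0652, 0.0785 and 0.0908). Without the 3 arrays of highest median none of these 3 was called (0.104, 0.325 and 0.553 for Styxl1, Dusp19 and Dusp26). Dusp9, the third cytoplasmic ERK phosphatase, stood at 0.33 ± 0.14 at 70 min (SE; limma adjusted p = 0.138) and 0.096 ± 0.14 at 4 h (0.839). Of 8 other phosphatase genes that act on MAP kinases, Ppp2r1a, the scaffold subunit of protein phosphatase 2A, rose by 0.25 at 70 min and was not called with arrays centred on their medians (adjusted p = 0.0639). At 4 h Ppm1a was called at 0.28 (adjusted p = 0.0399), a call that ended with the replicate number as a block (0.0542) and without any single control or 4 h array (0.0636 to 0.189).

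The list of ERK feedback genes holds genes whose transcription responds to ERK activity, several of which restrain it. Of its 14 genes, 5 rose and 1 fell at 70 min (median 0.13), and 0 rose and 3 fell at 4 h (median -0.23, all genes 0.014). Among all genes 6.76% were called higher and 7.81% lower at 70 min, and 2.08% higher and 1.77% lower at 4 h. Phlda1 rose by 0.60 at 70 min and fell by 0.88 at 4 h. At 70 min Etv5, an ETS factor, rose by 0.93 (0.79 without the 3 arrays of highest median, adjusted p = 0.0559), Spred2, an inhibitor of RAF activation, rose by 0.82, and Ier3 fell by 0.55. At 4 h the receptor signalling inhibitor Spry2 fell by 0.63 and Errfi1, an inhibitor of the epidermal growth factor receptor, fell by 0.44. Of 15 immediate early genes that respond to MAP kinases, 1 rose and 5 fell at 70 min (median -0.012) and 0 rose and 6 fell at 4 h (median -0.16). Egr1, a zinc finger factor, fell by 1.38 at 70 min and by 1.36 at 4 h, Myc by 0.78 and 0.65, and Zfp36, which destabilises mRNAs, by 0.66 and 0.63. The call of Myc at 70 min ended without the 3 arrays of highest median (adjusted p = 0.0693). Fosl1 rose by 0.74 at 70 min, and Fos fell by 0.78 at 4 h. At 8 h 0 of the 94 genes were called by limma, where 0.0275% of all genes were. Of the 94, 5 had an unadjusted p under 0.05.

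**Figure D3:**
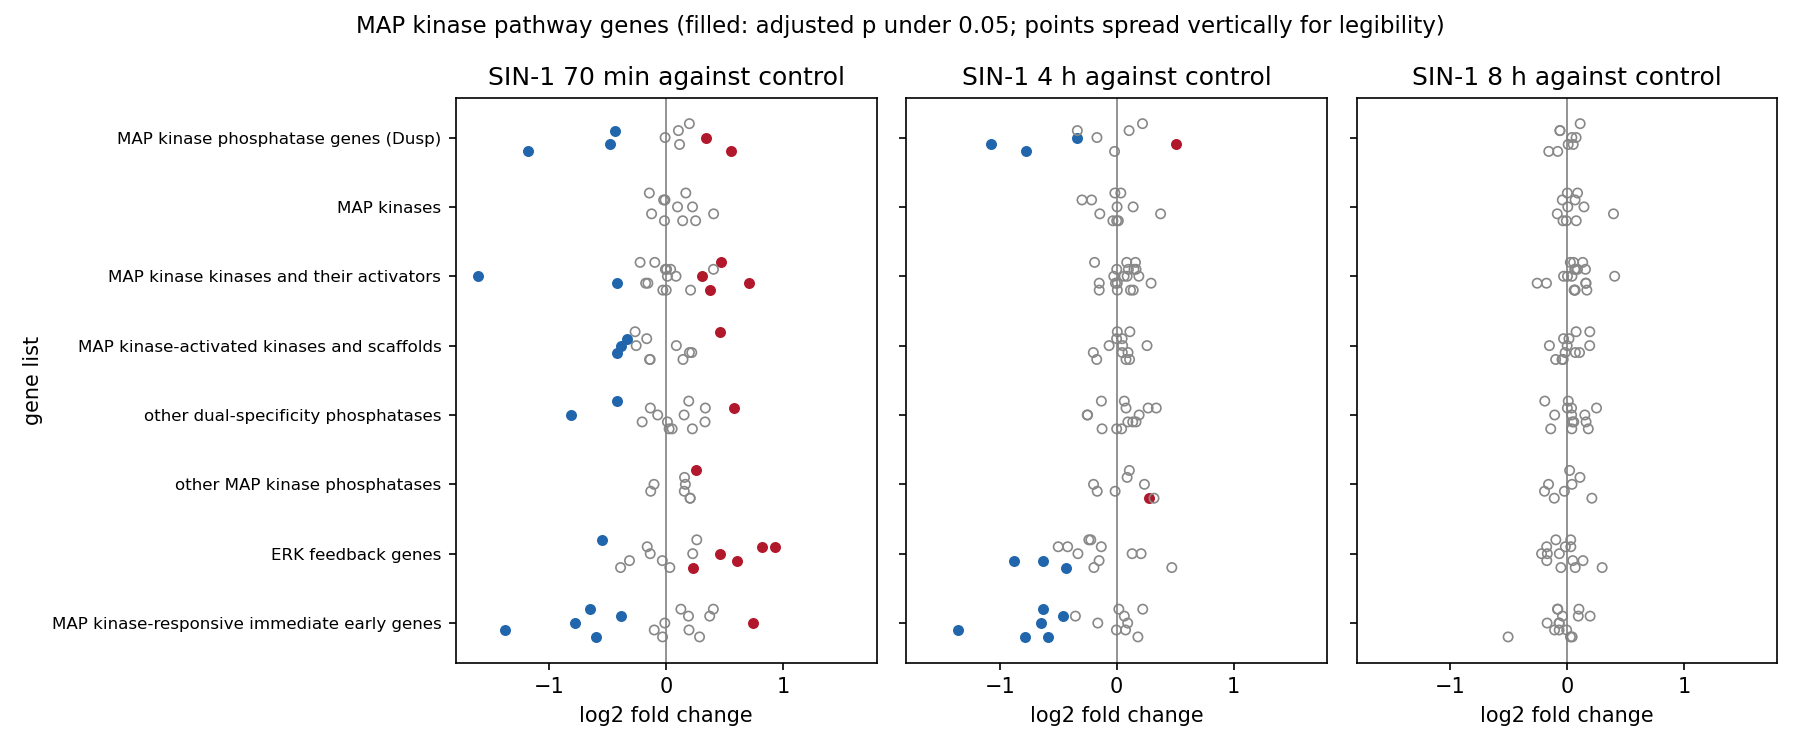
Log2 fold change against control (horizontal axis) of the phosphatase genes and of 7 lists of MAP kinase pathway genes at 70 min, 4 h and 8 h of SIN-1; each point is a gene, filled red (higher) or blue (lower) at an adjusted p under 0.05 and open otherwise. MAP kinase genes are open at all times, Map2k6 is the leftmost point at 70 min, where its mean lay below the median of unlisted probes, and no point is filled at 8 h.

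For each of the 6 changed phosphatase genes the 3 nearest genes over the 12 arrays were found, after each gene was centred on its own mean, by the root mean square difference in log2 units. Symbols beginning LOC, RGD, Mir, Vom or AABR, and Olr or AC followed by digits, were passed over. Olfactory receptor symbols beginning Or were not. Nearest to Dusp1 were Fmod (0.099), a matrix proteoglycan gene, Ddah2 (0.10), of the dimethylarginine dimethylaminohydrolase family, and Cdc42ep2 (0.12), a Cdc42 effector. Nearest to Dusp5 were Bok (0.085), of the BCL2 family, the uridine kinase gene Uck2 (0.095) and the cation channel gene Trpm2 (0.10). Nearest to Dusp7 were the transcription factor gene Ets1 (0.062), Errfi1 (0.078) and A3galt2 (0.083). Ets1 stood at 0.42 at 70 min and -0.41 at 4 h, next to 0.34 and -0.34 for Dusp7. Dusp6 had no gene as near. Bmp4, a secreted growth factor gene, was at 0.18, the olfactory receptor gene Or4c31 at 0.20 and the cardiac repeat protein gene Ankrd1 at 0.21. Nearest to Dusp8 were Trim35 (0.075), Spin1 (0.080) and the basement membrane collagen gene Col4a5 (0.081). Nearest to Dusp10 were the cell cycle inhibitor gene Cdkn1a (0.075), the olfactory receptor gene Or6k8 (0.10) and the condensin gene Ncapd3 (0.11).

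Each changed phosphatase gene had many genes nearer to it than any other member. With 9 members among 18166 genes this says little about the family. The member nearest to Dusp1 was Dusp8 at 0.32, with 365 genes nearer, and the member nearest to Dusp6 was also Dusp8, at 0.37 with 314 genes nearer. Dusp5 and Dusp7 were 0.24 apart, with 2668 genes nearer to Dusp5 and 2590 nearer to Dusp7. The member nearest to Dusp8 was Dusp16 at 0.19, with 2750 genes nearer, and that nearest to Dusp10 was Dusp4 at 0.20, with 1708 nearer. The counts of nearer genes are out of the 18166 genes less the symbols passed over.

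**Figure D4:**
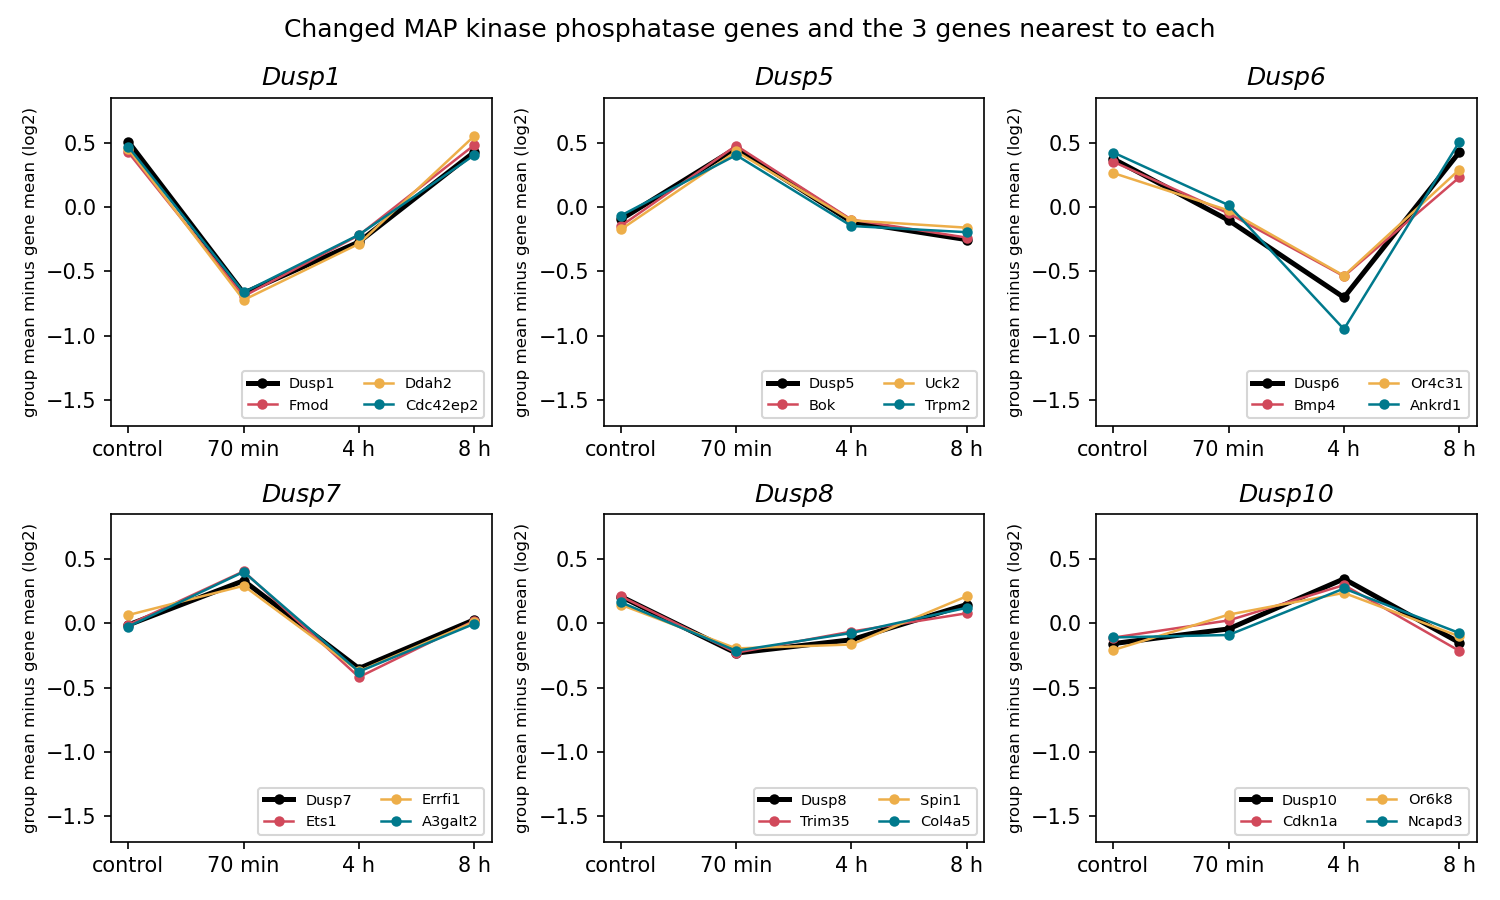
Group means minus the gene's own mean over 12 arrays (vertical axis, log2) in control and after 70 min, 4 h and 8 h of SIN-1, for each changed phosphatase gene (black) and the 3 genes nearest to it among the symbols searched. The curves of Dusp6 and its neighbours spread most at 4 h, and Ets1, Errfi1 and A3galt2 follow Dusp7 above and then below its starting level.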

How the data were processed

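Amplified, biotin-labelled RNA from each sample was read on a one-colour array, as the labels' protocols describe. The authors normalized the arrays by RMA with version 1.3.1.187 of Affymetrix Expression Console, which the submitters' processing notes name. The deposited table has 36685 probes by 12 arrays. Its log2 scale was inferred from the values the authors deposited. RMA equalises distributions, so differences in total RNA are removed and folds near background are compressed.

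The platform annotation listed 19086 probes, of which 18511 had 1 symbol; the brightest probe per symbol left 18166 genes. The 9 members matched by gene identifier. All 12 arrays entered a single limma fit by group (limma 3.58.1, R 4.3.3, eBayes with a trend, 8 residual degrees of freedom). The 6 pairwise comparisons were two-sided, an F test covered the 4 groups, and p-values were adjusted by Benjamini-Hochberg over all genes, with calls at an adjusted p under 0.05. The code was tested on simulated data. Errors are SDs over 3 arrays or model SEs, and the number of arrays limits precision.

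Members and lists were chosen with earlier results of these data known. Named are all members, up to 4 of the called genes with the largest change per list and comparison with control, Dusp9 and the cell markers, and the 3 genes nearest each changed member; apart from those, names were chosen after values were seen. Alternatives were the replicate number as a block, other priors, array weights, further quantile normalization, median centring, the array median as a covariate, brighter genes, mean of probes, compared groups alone, each array left out in turn, and the 3 arrays of highest median left out. Figures were drawn with matplotlib 3.10.9.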

Additional observations from a re-analysis of the deposited data

Results flagged for a closer look

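Expression under SIN-1 differed between times, by a direct test of 1 time against another, for 6 members. Over all genes, 7.63% were called at 4 h against 70 min, 3.51% at 8 h against 4 h and 16% at 8 h against 70 min. The time in culture of the control is not given, so an effect of SIN-1 cannot be told apart from one of time in culture. At 4 h against 70 min the log2 difference was 0.40 for Dusp1, 0.39 for Dusp10, -0.57 for Dusp5, -0.60 for Dusp6 and -0.68 for Dusp7 (limma adjusted p from 3.93e-05 to 0.00857). At 8 h against 4 h it was 0.70 for Dusp1, 1.13 for Dusp6, 0.38 for Dusp7 and -0.50 for Dusp10. At 8 h against 70 min it was 1.10 for Dusp1, 0.53 for Dusp6, 0.38 for Dusp8, -0.71 for Dusp5 and -0.30 for Dusp7. The last of these ended without 70 min replicate 2 or 3 or 8 h replicate 2 or 3 (limma adjusted p = 0.0582, 0.0604, 0.0681 and 0.0761). It also ended with arrays centred on their medians (-0.23, 0.174), with no trend in the prior variance (0.0508) and without the 3 arrays of highest median (-0.26). Without those 3 arrays, which leaves 1 array at 70 min, other calls ended too. At 4 h against 70 min they were Dusp1 (0.46), Dusp5 (-0.50), Dusp6 (-0.32) and Dusp10 (0.33). Likewise ended Dusp7 at 8 h against 4 h (0.29) and Dusp8 at 8 h against 70 min (0.34).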

How the results depend on the processing

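No called change of a member turned its sign under any alternative run. In many runs it could not turn. The replicate block, other priors, brighter genes, mean of probes and compared groups alone leave the difference itself as it was. So does leaving out an array of a group not compared. The recomputed values also include those not called in the main run, which had no call to lose. Of 1224 recomputed member values, 41 fell below the threshold and 1 passed it. Without the 3 arrays of highest median the number of members called fell by over 1.5 times in 3 comparisons. They were 70 min against control, 4 h against 70 min and 8 h against 70 min. The number of all genes called also fell by over 1.5 times in each of them, in a setting that leaves 1 array at 70 min. At 8 h against 70 min the member count ranged from 3 to 5 with single arrays left out. Fewer arrays were tested in those settings. With the replicate number as a block the counts were the same (5, 4 and 0 against control, and 6 by the F test) and no member's call changed. Same-numbered arrays share only a number: 5 of 18 pairs of them correlated above 0.1 in their deviations from group means (-0.32 to 0.24), and 4 of 12 arrays were closest to their own number.

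Values that were called in neither setting changed sign as follows. With the array median as a covariate Dusp16 at 70 min was 0.047, Dusp2 was -0.072 at 70 min and 0.022 at 8 h against control and 0.094 at 8 h against 70 min, and Dusp4 was 0.12 at 8 h against 70 min. With array weights Dusp10 was -0.042 at 8 h, and Dusp2 and Dusp4 -0.085 and -0.031 at 4 h against 70 min. After a further quantile normalization Dusp16 was 0.026 at 70 min. Without the 3 arrays of highest median Dusp16 was 0.23 at 70 min and -0.15 at 8 h against 70 min, Dusp2 was -0.11 at 70 min, -0.076 at 4 h, 0.014 at 8 h against 4 h and 0.048 at 8 h against 70 min, and Dusp4 was -0.020 at 70 min and 0.13 at 8 h against 70 min. With single arrays left out the ranges against control were -0.050 to 0.073 for Dusp10 at 8 h, -0.13 to 0.072 for Dusp16 at 70 min, -0.076 to 0.21 for Dusp2 at 4 h, -0.14 to 0.047 for Dusp2 at 8 h, -0.11 to 0.054 for Dusp5 at 4 h and -0.018 to 0.085 for Dusp7 at 8 h. Between times they were -0.18 to 0.11 for Dusp2 and -0.087 to 0.095 for Dusp4 at 4 h against 70 min, -0.28 to 0.014 and -0.21 to 0.035 at 8 h against 4 h, and -0.20 to 0.058 for Dusp4 at 8 h against 70 min. The cause of these changes was not tested.

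Over all genes, counts called ran from 1046 (without the 3 arrays of highest median) to 3626 (array weights) at 70 min, beside 2647, from 339 (no trend in the prior variance) to 903 (array median as a covariate) at 4 h, beside 699, and from 2 to 37 at 8 h, beside 5. Between times they ran from 318 to 1799 at 4 h against 70 min, beside 1386, from 299 to 851 at 8 h against 4 h, beside 637, and from 1181 to 4113 at 8 h against 70 min, beside 2904. Of the 9 members, 6 were bright enough for the setting with brighter genes alone, which left out Dusp2, Dusp4 and Dusp6.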
